A study of Mus musculus with 6 samples.

Results

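The genes described here are 8 components of the caspase cascade: the death receptor Fas, the apoptosome scaffold Apaf1, cytochrome c (Cycs), the mitochondrial protein Diablo, the caspase inhibitor Xiap, and the caspase genes Casp6, Casp8 and Casp9. They were taken by symbol, as 8 of the 45527 named genes in a table of read counts. The libraries were made from Pax7-lineage satellite cells, the stem cells of skeletal muscle, sorted for yellow fluorescent protein 24 h after 30 µl of cardiotoxin had been injected into the lower hindlimb. Cardiotoxin, from snake venom, destroys muscle fibres and starts regeneration. There were 3 control libraries, from Pax7creER:Paxbp1flox/+:R26R-YFP mice, and 3 libraries labelled Paxbp1-iKO, from Pax7creER:Paxbp1flox/flox:R26R-YFP mice. Both groups therefore carried the inducible Cre under the Pax7 promoter, the Cre-activated reporter and at least 1 floxed allele of Paxbp1, and both were injured. Cre acts only in cells that use the Pax7 promoter, and the sources used here do not state the ages of the mice.

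Apoptosis is carried out by caspases, proteases that are made as inactive precursors and switched on by cleavage or by assembly into large complexes. On the receptor route, Fas binds its ligand and, through the adaptor Fadd, gathers and activates caspase-8. On the mitochondrial route, cytochrome c leaves the mitochondrion and binds Apaf1, which assembles into the apoptosome and activates caspase-9. Caspase-6 is one of the executioner caspases that act downstream, Xiap binds and blocks caspase-9 and some executioners but not caspase-6, and Diablo, released with cytochrome c, displaces Xiap. Fas and Apaf1 are textbook targets of the transcription factor p53. Caspase activity is set largely on the protein, so messenger RNA levels measure the supply of these components and not their activation.

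Library totals ran from 23327359 to 28050748 counts. Levels below are CPM, counts per 1000000 counts of the TMM-scaled library, as mean ± SD with n = 3 per group. Changes are given on the log2 scale with their SE, positive where the iKO-labelled group was higher. The p-values come from the quasi-likelihood test of edgeR, adjusted by Benjamini-Hochberg over 16252 tested genes, with 0.05 as the threshold. Of these genes 20.4% passed, 8.15% higher and 12.3% lower, and the median change was 0.023. Whether each library came from its own animal is not stated, and p-values therefore reflect only the spread between these libraries. The targeted gene Paxbp1 stood at 70.8, 74.1 and 61.0 CPM in controls 1 to 3 and at 96.2, 107.8 and 126.7 CPM in the iKO-labelled libraries. It was thus higher in the group labelled as its knockout (0.68 ± 0.13, adjusted p = 0.00954). Counts cover the whole gene, and the sources used here do not state which part is floxed. Every direction below is drawn from the labels. The satellite cell genes Pax7, Myod1 and Myf5 were present in all libraries. Of 8 tested satellite cell genes 4 were higher (Pax7, Chodl, Vcam1 and Cdh15) and 3 lower (Myf5, Itga7 and Des). Pax7 rose from 11.3 ± 2.14 to 49.5 ± 1.70 CPM (2.125 ± 0.17, adjusted p = 2.2e-04). Chodl changed by 2.51 ± 0.15 (adjusted p = 6.9e-05) and Myf5 by -0.62 ± 0.078 (adjusted p = 0.00136). The cells of the 2 groups thus differed in these genes, and the part of this in the members' results was not tested. None of the 31 tested markers of leukocytes, endothelium, fibro-adipogenic progenitors, muscle fibres, Schwann cells and pericytes passed the test. Some of them were not low. In controls Dcn stood at 201 ± 76.7, Dpt at 149 ± 7.44 and Lyz2 at 102 ± 32.8 CPM, against 11.3 ± 2.14 for Pax7 and 1706 ± 168 for Myod1. The summed muscle fibre markers were at 7.34 to 26.6 CPM in controls. Several markers spread widely, such as Cldn5 at 57.0 ± 50.4 CPM in controls, so that not passing does not show equal levels.

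All 8 members passed the filter on low counts and were tested. Apaf1 rose, Cycs and Xiap fell, and Fas, Diablo, Casp6, Casp8 and Casp9 did not pass the threshold. Of these changes only the rise of Apaf1 passed in every alternative analysis that was run, whereas the falls of Cycs and Xiap lay just inside the threshold and were lost in most of them. The groups did not overlap for 4 members, against 39.8% of all tested genes: Apaf1 was higher in the iKO-labelled libraries, as were 18.9% of tested genes, and Cycs, Xiap and Casp8 were lower, as were 20.9%. The median change over the 8 members was -0.0057, close to that of all tested genes.

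**Figure D1:**
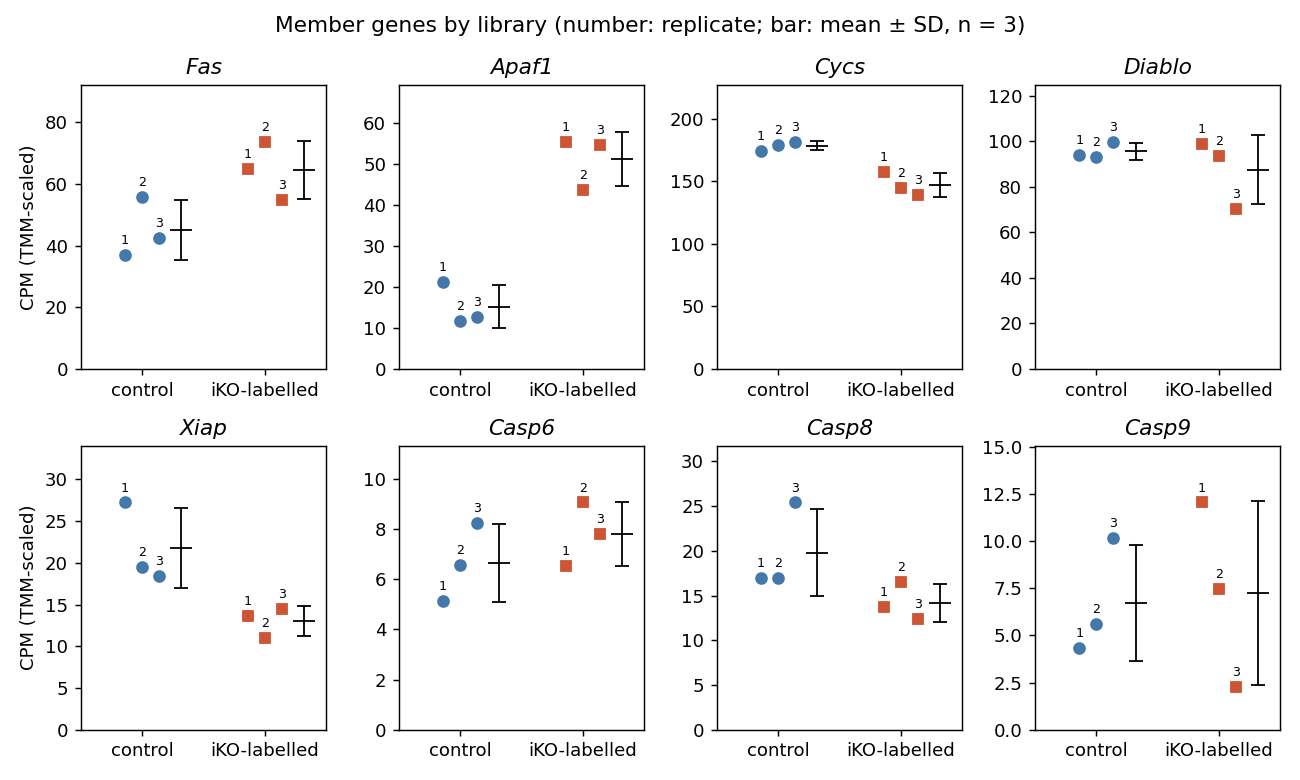
CPM of each of the 8 genes in the 3 control (circles) and 3 iKO-labelled (squares) libraries, with the replicate number above each point and the mean ± SD (n = 3) beside it; each panel has its own axis from 0. Apaf1 is the gene with the widest gap between the groups, and Casp9 the one with the widest spread within them relative to its mean.

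The upstream sequences of Apaf1 and Cycs are shown first because these genes moved in opposite directions in the fit as reported while sharing a short motif. The pair was picked with these results known, and the fall of Cycs was lost in most alternatives. Each line gives the 250 bases before the RefSeq start (GRCm38.p6), 5′ to 3′ on the gene's strand, which is the minus strand for both: Apaf1 at chr10:91082744-91082993 and Cycs at chr6:50566570-50566819. Capitals mark the core motif of the factor NRF-1 (GCATGCGC or its reverse complement GCGCATGC) and, in Cycs, a cAMP response element (TGACGTCA).
Apaf1: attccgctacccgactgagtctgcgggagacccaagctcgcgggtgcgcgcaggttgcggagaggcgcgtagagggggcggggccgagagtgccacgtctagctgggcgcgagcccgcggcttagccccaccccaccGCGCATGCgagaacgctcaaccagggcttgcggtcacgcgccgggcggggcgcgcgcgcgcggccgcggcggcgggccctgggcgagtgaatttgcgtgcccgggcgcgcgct
Cycs: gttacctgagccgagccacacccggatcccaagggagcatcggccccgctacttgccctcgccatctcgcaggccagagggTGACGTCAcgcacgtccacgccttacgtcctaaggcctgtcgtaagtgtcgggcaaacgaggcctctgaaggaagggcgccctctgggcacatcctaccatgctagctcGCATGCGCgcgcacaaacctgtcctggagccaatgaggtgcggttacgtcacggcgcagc

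The NRF-1 core lay 113 to 106 bases before the start in Apaf1 and 60 to 53 bases before it in Cycs, and the cAMP response element of Cycs lay 169 to 162 bases before the start. Among 32851 windows of this length in the RefSeq table, 2.26% held the NRF-1 core and 1.55% the cAMP response element, on either strand. No other member held either motif. The GC box GGGCGG was found upstream of Apaf1, Fas, Casp6, Casp9, Diablo and Xiap, and in 32.7% of all windows. The E2F motifs TTTGGCGC and TTTCGCGC and the decameric p53 half-site were searched in the same way on both strands. They were found in none of the 10 windows of the 8 members. They were rare in all windows too, at 0.417%, 0.256% and 7.13%, so that their absence here sets the members apart from no other genes. Neither a whole p53 element nor sequence outside these windows was searched. None of these motifs overlapped another in the members' windows. The windows follow RefSeq starts. Those of Casp8 and Xiap lie wholly inside the GENCODE genes, which begin at 58795374 and 42059679. The bases before these GENCODE starts were not searched. G and C made up 75.6% of the Apaf1 window and 64% of the Cycs window, against a median of 52.4% over all windows. These matches describe letters only: no binding was measured.

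Fas, the receptor at the head of the extrinsic route (chromosome 19, 34290666 to 34327772, plus strand, GRCm38), stood at 36.9, 55.7 and 42.5 CPM in controls 1 to 3 and at 65.0, 73.7 and 54.9 CPM in the iKO-labelled libraries. The groups met at their edges, since control 2 lay just above iKO-labelled library 3, and the other values were separate. Group levels were 45.0 ± 9.66 and 64.5 ± 9.41 CPM (0.52 ± 0.18, adjusted p = 0.0862), and the unadjusted 95% interval of the fold ran from 1.07 to 1.92. The result depended on 1 library: without control 2 the change was 0.70 with an adjusted p of 0.0367. Fas also passed with DESeq2 (adjusted p = 0.0253), with scaling by library totals, without a count filter and with a stricter one. Without control 1, the lowest value, the change was 0.39 (adjusted p = 0.189). In pooled cells such as these, more cells with the transcript and more transcript per cell cannot be told apart.

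Casp8, the initiator caspase recruited by Fas (chromosome 1, 58795374 to 58847503, plus strand), was at 17.0, 17.0 and 25.4 CPM in the controls and at 13.7, 16.5 and 12.4 CPM in the iKO-labelled libraries. Every iKO-labelled library lay below every control, but by as little as 0.435 CPM, and control 3 stood apart from the others. Levels were 19.8 ± 4.86 and 14.2 ± 2.12 CPM (-0.48 ± 0.23, adjusted p = 0.196). Without control 3 the change was -0.25 (adjusted p = 0.539). A transcript of the gene model Gm20257 shared 94.2% identity with Casp8 over 380 bases and had 44 to 77 counts in the controls and 112 to 151 in the iKO-labelled libraries, against 305 to 663 for Casp8. The sources used here do not state how reads matching both were handled.

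On the mitochondrial route, Apaf1, the scaffold that binds cytochrome c and gathers caspase-9, changed most (chromosome 10, 90989311 to 91082770, minus strand). The controls had 475, 302 and 330 counts, and the iKO-labelled libraries 1583, 1284 and 1350. These are 21.2, 11.7 and 12.6 CPM against 55.5, 43.8 and 54.7 CPM, so that the lowest iKO-labelled library was above the highest control. Apaf1 rose from 15.2 ± 5.26 to 51.3 ± 6.56 CPM (1.76 ± 0.25, adjusted p = 0.00239), a 3.38-fold difference with an unadjusted 95% interval of 2.28 to 5.03. Its log2 change was higher than that of 95.4% of tested genes. Control 1 was the highest control for Apaf1. It also had the highest summed level of endothelial markers, 246.0 CPM against 62.7 CPM in the lowest control and 118 to 141 CPM in the iKO-labelled libraries. The summed markers of fibro-adipogenic progenitors (483 CPM), Schwann cells and pericytes (126 CPM) and muscle fibres (26.6 CPM) were highest in control 1 too. For leukocyte markers it was the lowest control (126 CPM). The part of these markers in the Apaf1 result was not tested. Without control 1 the rise was larger (2.08, adjusted p = 0.00116). It remained past the threshold whichever library was left out, with changes from 1.61 to 2.08.

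Cycs encodes the cytochrome c that both carries electrons in respiration and triggers the apoptosome (chromosome 6, 50562563 to 50566538, minus strand). It was at 174.5, 179.1 and 181.8 CPM in the controls and at 157.7, 144.8 and 139.4 CPM in the iKO-labelled libraries. The groups were separate and tight, with coefficients of variation of 2.05% among controls and 6.39% among iKO-labelled libraries. Counting error alone would give 1.5% and 1.57%. The fall from 178.5 ± 3.67 to 147.3 ± 9.41 CPM was small (-0.28 ± 0.081, adjusted p = 0.0463). The call was lost in 14 of 17 alternatives, 5 of them the omission of a single library other than iKO-labelled library 1, and under scaling by library totals the change was -0.14.

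Cycs has near-identical copies in the mouse genome, and reads from them cannot be assigned with certainty. The retrogene Gm10053 matched the Cycs transcript over 946 bases at 99.9% identity, with 1 mismatch, and the processed pseudogenes Gm10108 and Gm13772 matched it at 99.4% over 319 and 317 bases. Together these 3 rows held 11.3% to 12.2% of the counts of Cycs and its copies in each library, with the groups overlapping. Gm10053 itself was at 19.6 ± 1.48 and 16.5 ± 0.572 CPM (-0.24 ± 0.16, adjusted p = 0.362). With the 3 rows added to Cycs, which was decided once the data had been seen, the change was -0.27 ± 0.079 (adjusted p = 0.044), close to that of Cycs alone. With so small and even a share, adding these rows could hardly move the change. The sum also does not recover any reads that were counted in none of these rows. It therefore does not show how shared reads were assigned.

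Diablo, whose product leaves the mitochondrion with cytochrome c and relieves caspases of Xiap (chromosome 5, 123509765 to 123524176, minus strand), was at 93.8, 92.9 and 99.7 CPM in the controls. In the iKO-labelled libraries it was at 98.9, 93.3 and 70.2 CPM, so that libraries 1 and 2 lay within the control range and library 3 alone was low. The difference of -0.13 ± 0.14 was within the spread (adjusted p = 0.591), and the unadjusted 95% interval of the fold ran from 0.735 to 1.14. Without iKO-labelled library 3 the change was 0.0094. The annotation places B3gnt4 on the opposite strand over 1326 exonic bases of Diablo. B3gnt4 had 0 counts in all 6 libraries, and the protocol does not mark strand. The gene model Gm49027 overlaps Diablo on the same strand over 1193 exonic bases, and the read counts hold no row of that name. How reads from the shared bases were assigned is not known.

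Xiap, the inhibitor that holds caspase-9 in check (chromosome X, 42059679 to 42109656, plus strand), was at 27.2, 19.5 and 18.5 CPM in controls 1 to 3 and at 13.7, 11.05 and 14.5 CPM in the iKO-labelled libraries. The groups were separate, with control 1 well above the other two controls. Control 1 is also the library with the highest summed endothelial, fibro-adipogenic, muscle fibre, and Schwann cell and pericyte markers. The part of these markers in this result was not tested. Xiap fell from 21.7 ± 4.78 to 13.1 ± 1.79 CPM (-0.73 ± 0.22, adjusted p = 0.0491), to 0.601 of the control level with an unadjusted 95% interval of 0.424 to 0.853. The call was lost whichever library was left out (adjusted p from 0.0633 to 0.155), and without control 1 the change was -0.54. It held with DESeq2, limma-voom, either count filter and limma on log2(FPKM + 0.1), and was lost in the other 6 processing alternatives. The direction was the same in all 17.

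Casp9, the initiator caspase of the apoptosome (chromosome 4, 141793612 to 141815976, plus strand), was the most variable member. The controls had 97, 145 and 266 counts and the iKO-labelled libraries 344, 219 and 56, or 4.34, 5.60 and 10.2 CPM against 12.1, 7.47 and 2.27 CPM. The iKO-labelled group held both the highest and the lowest library of the 6. The coefficient of variation was 45.9% among controls and 67.4% among iKO-labelled libraries, where counting error alone would give 7.68% and 6.96%. Means were 6.71 ± 3.08 and 7.26 ± 4.90 CPM (0.11 ± 0.58, adjusted p = 0.918). The unadjusted 95% interval of the fold, 0.430 to 2.73, includes sizeable differences in either direction, so that a change was not detectable with this spread. The sign turned when control 1, control 2 or iKO-labelled library 1 was left out.

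Casp6, an executioner caspase that cleaves nuclear lamins (chromosome 3, 129901425 to 129914103, plus strand), was at 5.14, 6.57 and 8.24 CPM in the controls and at 6.52, 9.07 and 7.83 CPM in the iKO-labelled libraries. The groups overlapped broadly. Means were 6.65 ± 1.55 and 7.80 ± 1.27 CPM (0.23 ± 0.28, adjusted p = 0.636), with an unadjusted 95% interval of the fold from 0.748 to 1.84. At 115 to 266 counts per library, counting error alone was 7.75% and 6.82% of the mean in the 2 groups, against coefficients of variation of 23.3% and 16.3%. The change was 0.074 without control 1, 0.11 without iKO-labelled library 2 and 0.42 without control 3.

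**Figure D2:**
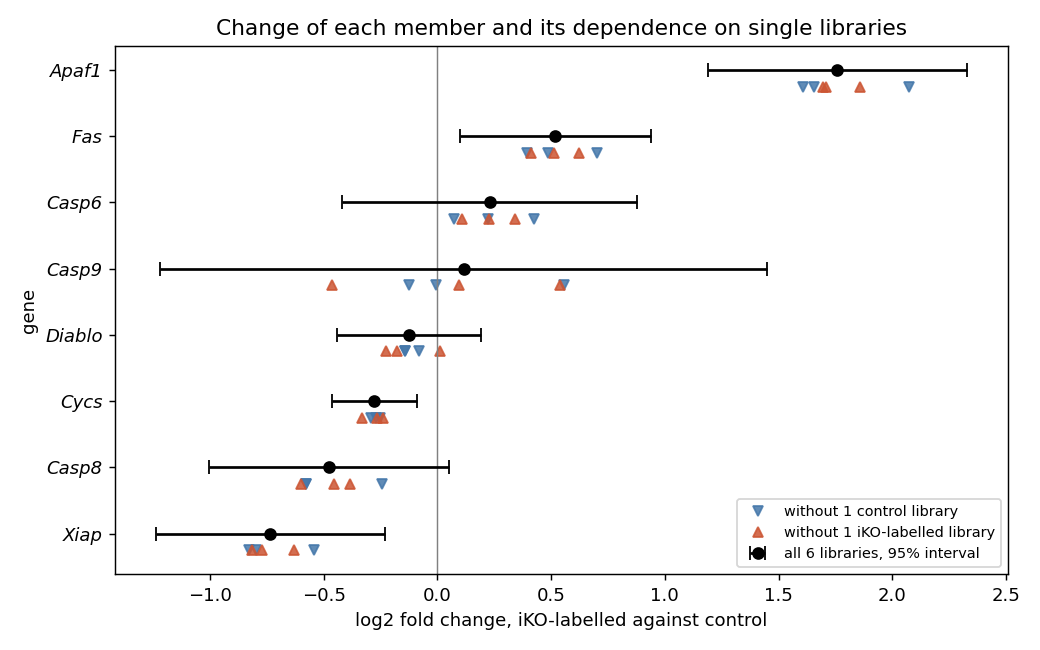
Log2 fold change of each gene (x axis, iKO-labelled against control; y axis, genes ordered by change) with all 6 libraries and its unadjusted 95% interval (black), and with 1 control (downward triangles) or 1 iKO-labelled library (upward triangles) left out. Apaf1 stays between 1.61 and 2.08, whereas the triangles of Casp9 lie on both sides of 0.

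Levels of different genes were compared only on the deposited FPKM, which are scaled to gene length. Over the 6 libraries Cycs was the most abundant member, from 40.4 to 52.5 FPKM, followed by Fas from 19.8 to 40.3 FPKM and Diablo from 9.99 to 14.2 FPKM. Cycs exceeded Fas, Fas exceeded Diablo and Diablo exceeded Casp8 in 6 of 6 libraries. Casp8 followed with 4.22 to 8.63 FPKM. Apaf1 ranged from 1.27 to 2.27 FPKM in the controls and from 4.78 to 6.07 FPKM in the iKO-labelled libraries. It was below Casp8 in every control and above it in 2 of the 3 iKO-labelled libraries. Apaf1 was also above Xiap in 3 of 6 libraries, all of them iKO-labelled. Xiap (1.18 to 2.84 FPKM), Casp9 (0.431 to 2.29 FPKM) and Casp6 (0.888 to 1.60 FPKM) were the lowest members in the iKO-labelled libraries. In the controls Apaf1 lay among these genes, and in control 3 it was the lowest of the 8 at 1.38 FPKM. The order of Xiap, Casp9 and Casp6 differed between libraries.

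**Figure D3:**
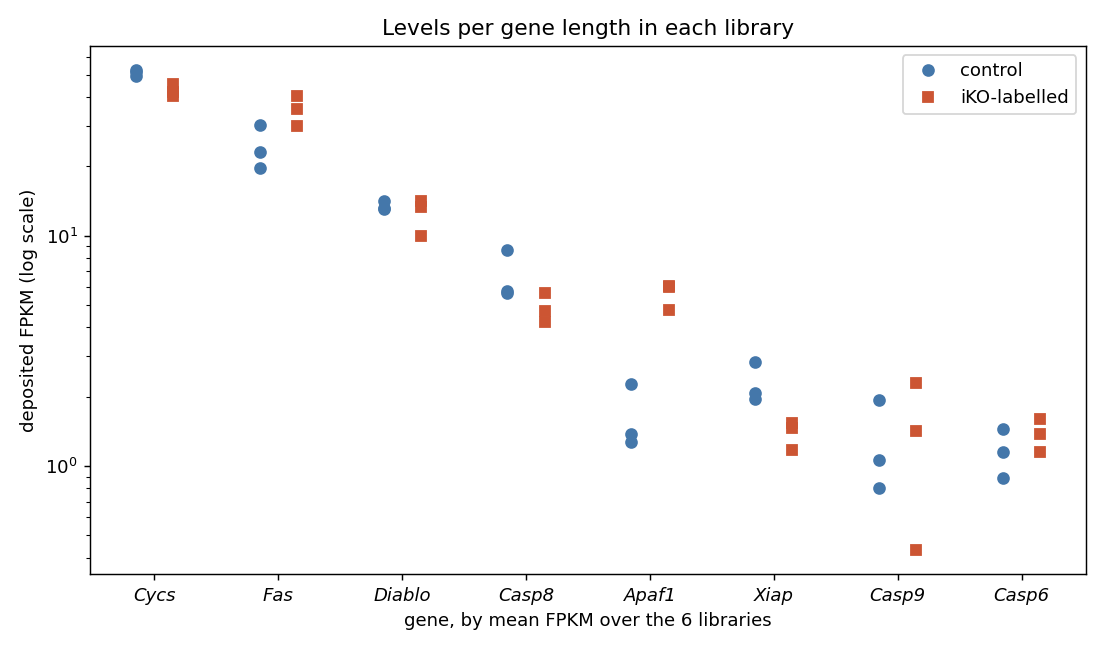
Deposited FPKM of the 8 genes on a log axis, with genes ordered along the x axis by their mean over the 6 libraries and each point 1 library (circles, control; squares, iKO-labelled). Apaf1 lies just below Xiap in the controls and near Casp8 in the iKO-labelled libraries.

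A pair of ratios between partner proteins' transcripts was formed within each library. The Apaf1 to Casp9 ratio of FPKM was 2.82, 1.20 and 0.714 in the controls and 2.65, 3.38 and 13.9 in the iKO-labelled libraries. The highest value came from the library with the fewest Casp9 counts, and the groups overlapped (log2 difference 1.89, exact two-sided permutation p = 0.2). Without that library the log2 difference was 1.16, and over the omission of each library it ran from 1.16 to 2.43. The Diablo to Xiap ratio was 4.61, 6.36 and 7.22 in the controls and 9.67, 11.3 and 6.48 in the iKO-labelled libraries, which also overlapped (log2 difference 0.58, exact two-sided permutation p = 0.2). Over the omission of each library this ran from 0.40 to 0.81. With 3 libraries against 3 the smallest p this test can give is 0.1, so it cannot pass 0.05.

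The rest of the pathway was described by 7 lists with 61 genes, of which 53 were tested. Of these, 9 rose and 10 fell, or 35.8% called against 20.4% of all tested genes (8.15% higher and 12.3% lower). Their median change was -0.026, against 0.023 over all tested genes. The lists were chosen with earlier results of these data known, and the counts are descriptions. Among the other caspases described, 1 of 5 tested rose and none fell. Casp4, the inflammatory caspase that senses intracellular lipopolysaccharide, rose from 19.6 ± 4.97 to 49.5 ± 2.40 CPM (1.33 ± 0.19, adjusted p = 0.0026). Casp12, a caspase of the endoplasmic reticulum, was at 15.1 ± 2.98 and 12.6 ± 2.45 CPM (adjusted p = 0.508). Casp1, the inflammatory caspase that processes interleukin-1 beta, had 43, 109 and 0 counts in the controls and 47, 26 and 48 in the iKO-labelled libraries (-0.45 ± 1.251, adjusted p = 0.848), and its sign turned without control 2 (0.66).

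Among death receptors and ligands, 2 of 9 tested rose and none fell, with a median change of 0.29. Tnfrsf10b, the mouse receptor for the death ligand TRAIL, was at 284, 396 and 411 counts in the controls and 1232, 1114 and 1013 in the iKO-labelled libraries, and rose from 14.6 ± 1.65 to 40.7 ± 2.62 CPM (1.48 ± 0.15, adjusted p = 5.8e-04). Eda2r, a receptor for ectodysplasin A2, rose from 112.9 ± 9.76 to 296.7 ± 41.9 CPM (1.39 ± 0.12, adjusted p = 2.8e-04). Ngfr, the p75 neurotrophin receptor, was at 13.1 ± 3.74 and 7.70 ± 1.03 CPM (-0.77 ± 0.28, adjusted p = 0.0947). Fasl, the ligand of Fas, was not tested: it had 1, 0 and 0 counts in the controls and 5, 0 and 0 in the iKO-labelled libraries, too few for a comparison.

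Among adaptors and regulators of these receptor complexes, 1 of 10 rose and 2 fell. Traf2, an adaptor that leads to NF-kB and Jun kinase signalling, rose from 103.5 ± 6.88 to 160.3 ± 16.3 CPM (0.63 ± 0.10, adjusted p = 0.00494). Faf1, a Fas-associated protein, fell from 116.4 ± 8.69 to 71.4 ± 9.94 CPM (-0.71 ± 0.12, adjusted p = 0.00651). Tradd, the adaptor of the TNF receptor, fell from 15.7 ± 4.27 to 8.24 ± 0.629 CPM (adjusted p = 0.035). This call was lost without control 1 or 3 or any iKO-labelled library (adjusted p up to 0.12). Fadd, which joins Fas to caspase-8, was named after its value was seen: at 9.24 ± 0.883 and 5.02 ± 1.02 CPM it did not pass (-0.88 ± 0.27, adjusted p = 0.0522), although the groups did not overlap.

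Among inhibitor of apoptosis proteins and their antagonists, 3 of 7 tested rose and 2 fell. Birc5, the survivin gene, which also serves chromosome segregation, fell from 36.5 ± 10.9 to 1.99 ± 1.02 CPM (-4.19 ± 0.41, adjusted p = 5.1e-04). Birc2, the ubiquitin ligase cIAP1, rose from 38.1 ± 1.77 to 79.4 ± 4.78 CPM (1.06 ± 0.11, adjusted p = 6.4e-04), in the direction opposite to Xiap. Htra2, a mitochondrial protease that antagonises Xiap, fell from 41.0 ± 0.811 to 22.1 ± 2.05 CPM (-0.89 ± 0.14, adjusted p = 0.00333). The other risers were named after their values were seen. Xaf1, a Xiap-associated factor, changed by 2.24 ± 0.46 (adjusted p = 0.0123) from 1.26 ± 0.615 CPM, and Birc3, the ligase cIAP2, by 0.39 ± 0.12 (adjusted p = 0.0492). The Birc3 call was lost on the omission of any of the libraries (adjusted p up to 0.156).

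Among 7 tested genes listed as apoptosome regulators and other mitochondrial death proteins, none rose and 3 fell. The list's median change, -0.77, was that of Hspa4 itself, whose place in this list is uncertain. Of the list's genes named after their values were seen, Aifm2 changed by 0.20, Nol3 by 0.22, Aven by 0.30 and Apip by -0.78, none passing. Hspa4, a chaperone of the Hsp110 family, fell from 524.7 ± 14.8 to 308.5 ± 4.03 CPM (-0.77 ± 0.061, adjusted p = 2.1e-04). Aifm1, a flavoprotein of the intermembrane space, fell from 66.5 ± 14.9 to 35.6 ± 6.43 CPM (-0.90 ± 0.20, adjusted p = 0.0156), and Endog, the mitochondrial endonuclease, from 5.91 ± 1.06 to 2.50 ± 0.662 CPM (adjusted p = 0.0425). The Aifm1 call was lost without iKO-labelled library 1 or 3 (adjusted p up to 0.0638), and that of Endog on the omission of any (adjusted p up to 0.13). Bax, which opens the outer mitochondrial membrane, rose from 131.4 ± 4.40 to 185.1 ± 16.2 CPM (0.49 ± 0.091, adjusted p = 0.00773). Bid, which caspase-8 cleaves to reach the mitochondrion, and Bak1 did not pass (adjusted p = 0.353 and 0.537).

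Among 12 caspase substrates and nuclease genes, 1 rose and 3 fell. Lmnb1, the lamin B1 gene, fell from 86.4 ± 10.95 to 20.4 ± 1.97 CPM (-2.08 ± 0.15, adjusted p = 1.4e-04), and Parp1, a sensor of DNA breaks, from 138.3 ± 15.5 to 48.8 ± 14.2 CPM (-1.50 ± 0.22, adjusted p = 0.00254). Panx1, a membrane channel that caspases open, fell from 32.2 ± 7.13 to 14.5 ± 3.96 CPM (adjusted p = 0.0156), and did not pass without control 2 or iKO-labelled library 3 (adjusted p up to 0.0593). Dffb, the caspase-activated nuclease, was named after its value was seen and rose from 4.20 ± 1.42 to 9.18 ± 2.04 CPM (1.13 ± 0.33, adjusted p = 0.0472). Its call was lost without any library but control 2 (adjusted p up to 0.171).

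**Figure D4:**
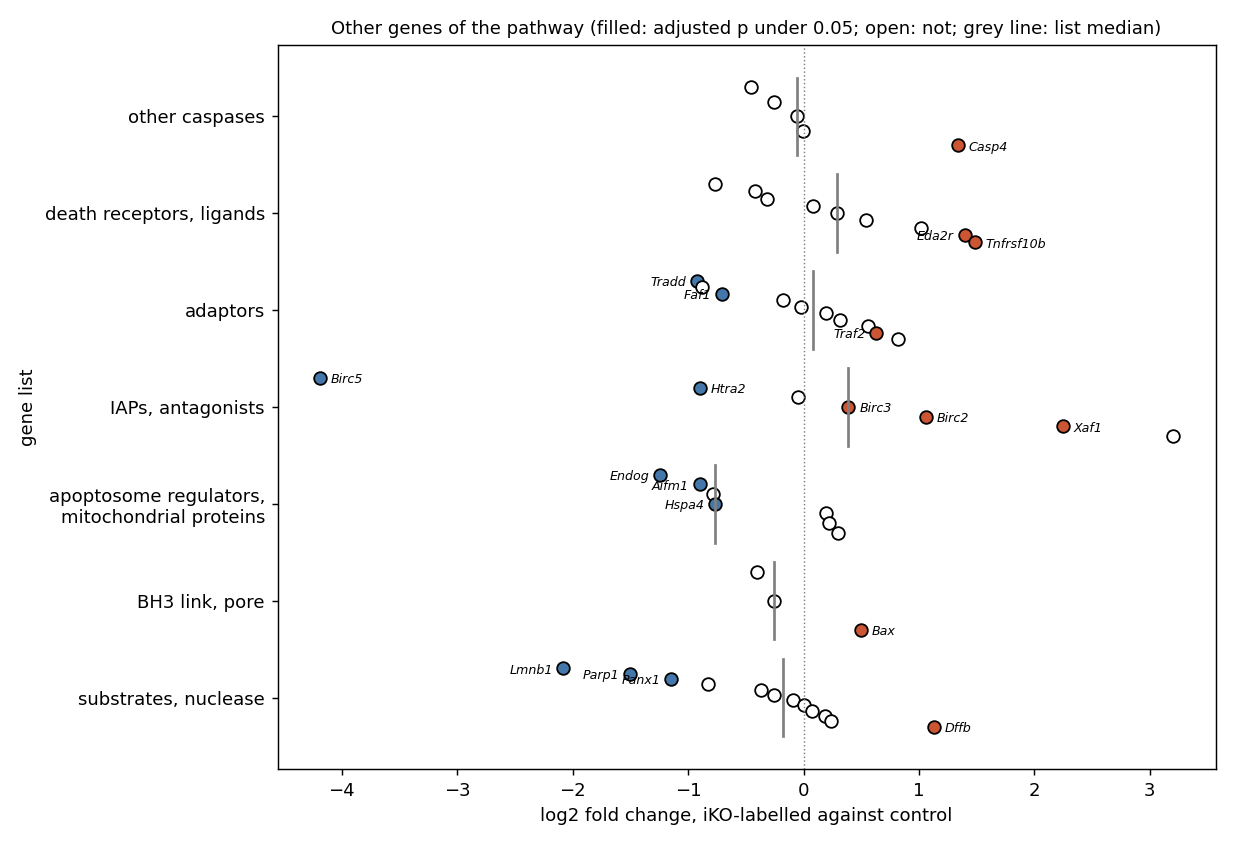
Log2 fold change (x axis) of the 53 tested genes in 7 lists of the pathway (y axis), filled where the adjusted p was under 0.05 (19 genes, named) and open otherwise, with the grey line at each list's median. Risers and fallers lie side by side in 3 of the lists, among them the IAP list, where Birc5 is the lowest gene.

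For each member, the gene with the most similar profile was taken as the nearest by Euclidean distance of mean-centred log2 CPM over the 6 libraries, among 8767 genes. For Apaf1 it was Atxn7l1 (distance 0.30), which changed by 1.87. For Cycs it was Fkbp1a (0.037), and for Xiap Cdc42ep3 (0.24). Fas was nearest to Appl2 (0.18), Diablo to Toe1 (0.070), Casp6 to Homer2 (0.19) and Casp8 to Dgkd (0.14). Casp9, the most variable member, lay furthest from its nearest gene, Klhl20 (0.87). This distance grows with a gene's own spread, so it does not rank the members by likeness of profile. The Pearson correlation over the 6 libraries was 0.923 for Casp9 and Klhl20. For the other pairs it ran from 0.959 (Casp6) to 0.997 (Apaf1). With this many genes and 6 libraries, a near neighbour is easily found, and these are descriptions.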

How the data were processed

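Complementary DNA was made with Smart-Seq2 from RNA of sorted cells, per the labels' protocols. That method primes on poly(A) tails and keeps no strand information. Tools listed in the submitters' processing notes are featureCounts, Subread, STAR, Trim Galore and DESeq2, with build mm10 and no versions or roles. The authors deposited raw read counts and FPKM per gene and library. Ratios of count to deposited FPKM between libraries matched median-of-ratios size factors to within 9.3e-15 over 11939 genes, and the gene lengths implied by the FPKM matched GENCODE M21 exon lengths for 5 members, with ratios of 0.873 for Fas, 1.12 for Diablo and 0.978 for Xiap relative to these. The 551 rows without a gene name (0.108% to 0.123% of counts) were left out.

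Genes passing filterByExpr (count of at least 10, total of at least 15) were scaled by TMM and fitted by edgeR 4.0.16 in R 4.3.3 with the group as the only term. SE is the log2 change divided by the square root of F, and 95% intervals use the fit's residual and prior degrees of freedom. FPKM ratios were compared by an exact permutation test. The fit was also run on simulated data with the same spread for every gene, which the data do not have. There it recovered 4.48% of planted 1.5-fold, 28.4% of planted 2-fold and 100% of planted 4-fold changes. Of 95 calls there, 7 were of genes with no planted change. Far fewer genes were changed there than the 3315 called in the data. These shares therefore do not give the share of real changes found in the data. Alternatives used DESeq2 1.42.0 and limma 3.58.1. Sequences and starts come from RefSeq (GRCm38.p6, 8 of 8 members matched), and gene positions and transcripts from GENCODE M21 (GRCm38). Copies were sought by blastn at 90% identity or more over at least 200 bases. The genes named are the 8 members, Paxbp1, up to 3 genes of each list with the smallest adjusted p, and the nearest profiles; others are marked. One gene of the caspase list is not reported here, and the list counts leave it out. The members, lists and motifs were chosen with earlier results of these data, or the sequences, known.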

Additional observations from a re-analysis of the deposited data

How the results depend on the processing

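Of 136 values of the 8 members under other processing choices or with a library left out, 97 kept their direction and side of the threshold. Apaf1 and Casp8 did so throughout, as did Casp6. Fas passed with DESeq2 (0.53), library totals (0.65), no count filter (0.53) and at least 5 CPM in 3 libraries (0.59), and ranged from 0.39 to 0.70 with a library left out. Cycs did not pass with RLE (-0.26) or upper-quartile factors (-0.20), library totals (-0.14), no filter (-0.26), the stricter filter (-0.21) or limma on log2(FPKM + 1) with and without a filter (-0.26), or on log2(FPKM + 0.1) (-0.26), and ranged from -0.33 to -0.24 with a library left out. Xiap did not pass with RLE (-0.71) or upper-quartile factors (-0.66), library totals (-0.60) or limma on log2(FPKM + 1) with and without a filter (-0.45), and ranged from -0.83 to -0.54 with a library left out. Diablo turned sign with library totals (0.0046), ranging from -0.23 to 0.0094 with a library left out, and Casp9 with limma-voom (-0.058) and log2(FPKM + 0.1) (-0.047), ranging from -0.46 to 0.56. Casp1, outside the members, turned sign with limma-voom (1.47), log2(FPKM + 0.1) (0.52) and the replicate block (0.38), ranging from -1.03 to 0.66 with a library left out. Some pathway calls were also lost under other processing. Of 11 processing alternatives, Birc3 passed in 7, Tradd and Dffb in 8, Panx1 in 9 and Aifm1 in 10. Endog passed in 6 of 10. The remaining called pathway genes passed in every processing alternative that tested them. With the replicate number as a block, Cycs (-0.28, adjusted p = 0.122) and Xiap (-0.72, adjusted p = 0.0845) did not pass and Casp9 turned sign (-0.021). That block gave 1 member higher and 0 lower and 813 genes higher. The labels speak of pairs but do not state what same-numbered libraries share. The number was therefore not a term of the fit as reported. Deviations of same-numbered libraries from their group means correlated at -0.067, -0.0021 and -0.059 across genes. With 3 libraries a group, these values cannot decide whether libraries were paired. Members called higher, 1 in the fit as reported, numbered 2 with DESeq2, library totals, no filter or the stricter filter, and 1 to 2 with a library left out. Members called lower, 2 as reported, numbered 0 with RLE, upper-quartile and total scaling and with log2(FPKM + 1), 1 with no filter, the stricter filter and log2(FPKM + 0.1), and 0 to 1 with a library left out. With a library left out, 6 to 9 pathway genes were lower, 2053 to 2816 genes were called in all and 706 to 1159 higher. DESeq2 called 2076 genes higher. Library totals moved the median change by 0.13 and the share of higher calls from 39.9% to 57.2%. The causes of these shifts were not tested. The 3 libraries a group limit what can be detected: for Casp9 the unadjusted 95% interval spans 0.430 to 2.73 fold.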
